A study of Homo sapiens with 6 samples.

Results

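The 10 genes described here encode enzymes of prostaglandin and leukotriene synthesis, the enzyme that inactivates prostaglandins, and a prostaglandin E2 receptor. They were found by gene symbol in a table of 23569 genes, and all 10 were listed. RNA was sequenced from TFK1 cells, a line established from a human extrahepatic bile duct carcinoma. The negative control cells (oeNC, n = 3 libraries) and the cells overexpressing STUB1 (oeSTUB1, n = 3 libraries) were made by lentiviral transduction of the same line and selected with puromycin, and neither received a further treatment. STUB1 is a ubiquitin ligase, and the comparison asked which genes change when it is overexpressed. As far as the methods tell, each condition was 1 stable population, and effects of the population itself and of STUB1 cannot be told apart. The labels do not say whether the libraries of a condition came from separate cultures, and p-values then measure the spread between these libraries, which may be technical.

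Prostaglandins are made from arachidonic acid that phospholipase A2 releases from membranes. The cyclooxygenases PTGS1 (COX-1, mostly constitutive) and PTGS2 (COX-2, inducible) turn it into prostaglandin H2, and terminal synthases then form prostaglandin E2, prostacyclin, thromboxane and others. Prostaglandin E2 acts on EP receptors, of which EP2 and EP4 raise cAMP, and is inactivated by the dehydrogenase HPGD. In a parallel branch ALOX5, helped by its activating protein ALOX5AP, makes leukotriene A4, which LTA4H hydrolyses to leukotriene B4. COX-2 and prostaglandin E2 are known for their part in inflammation and growth of epithelial tumours, the biliary tract included.

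Values are FPKM, a fragment number divided by gene length and library size, as the authors deposited them. The libraries held between 33106564 and 36744521 fragments, as recovered from the steps of the FPKM values, and fragment numbers below come from this recovery. Differences were tested with limma on log2(FPKM + 0.1) over the 15353 genes whose mean reached 0.1 FPKM, and a gene is called where its p-value after Benjamini-Hochberg adjustment was below 0.05. STUB1 itself had 1633, 1636 and 1620 fragments in oeNC replicates 1, 2 and 3 and 3023, 3547 and 3022 in the oeSTUB1 replicates, in the direction of the labels. Of 12 biliary epithelial markers, KRT7, KRT8 and KRT18 lay between 481.6 and 4063 FPKM in every library. KRT19 lay between 0.374 and 0.529 FPKM in oeNC and between 2.51 and 3.41 FPKM in oeSTUB1 libraries (log2 fold change 2.47, adjusted p = 0.00018 from limma). CFTR had at most 3 fragments in any library. Of the 11 tested markers of this list, 1 (KRT19) was called higher and 7 lower in oeSTUB1 cells. KRT8, KRT18 and EPCAM were among the 7, with log2 fold changes of -0.57, -0.68 and -1.13. Over all tested genes 7.01% were called higher and 6.59% lower.

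The starts of PTGES and PTGS2 are shown first, because PTGES, the inducible synthase, was called and PTGS2, the inducible cyclooxygenase that feeds it, was not. Both sequences are from RefSeq on GRCh38.p14 and end just before the first annotated exon base. They lie at chr9:129753048-129753292 and chr1:186680428-186680673, both on the minus strand, and read 5′ to 3′ towards the gene. Capitals mark matches, on either strand, to 4 motifs. The GC box was searched as GGGCGG. The EGR1 type motif was searched as GCGTGGGCG. The TATA box was searched as TATAAA. The half-site of the cAMP response element was searched as TGACG, which reads as its complement in the PTGS2 sequence.
PTGES: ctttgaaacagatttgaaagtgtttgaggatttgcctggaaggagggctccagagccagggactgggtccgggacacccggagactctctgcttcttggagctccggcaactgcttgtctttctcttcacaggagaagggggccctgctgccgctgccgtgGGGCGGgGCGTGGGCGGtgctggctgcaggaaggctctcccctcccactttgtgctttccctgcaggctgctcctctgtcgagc
PTGS2: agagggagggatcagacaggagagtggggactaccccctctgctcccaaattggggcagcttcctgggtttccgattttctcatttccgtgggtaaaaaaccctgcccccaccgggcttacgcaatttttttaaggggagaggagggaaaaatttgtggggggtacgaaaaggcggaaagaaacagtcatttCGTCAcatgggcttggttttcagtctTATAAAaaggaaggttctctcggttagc
PTGES had no TATA box in its window of 300 bases, and its GC boxes began 89 and 78 bases before the RefSeq start. That start, from which all motif positions are counted, lies a few bases past the end of the printed sequence for both genes. The second of them overlaps the EGR1 type motif that began 82 bases before the start. PTGS2 had no GC box, but a TATA box 32 bases and a half-site 58 bases before its start, and its window of 300 bases held 2 half-sites in all. Of 35116 promoter windows of the same length, 45.0% held a GC box, 11.5% the TATA box, 0.795% the EGR1 type motif and 24.6% the half-site. The EGR1 type motif was also present in a window of PTGES2, which was not called. Windows of PTGES2 and HPGD, which were not called, of PTGS1, which was not tested, and of PTGER4, which was called, held GC boxes too. These matches are letters in a window and not evidence of binding.

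PTGES rose in oeSTUB1 cells. It encodes microsomal prostaglandin E synthase-1, the inducible enzyme that converts prostaglandin H2 to prostaglandin E2. Its GENCODE release 29 gene spans chromosome 9, positions 129738331 to 129753047 (GRCh38, minus strand), the build of all gene positions given here. Its expression was 10.5, 10.8 and 11.7 FPKM in oeNC replicates 1, 2 and 3 and 28.9, 34.6 and 32.2 FPKM in oeSTUB1 replicates 1, 2 and 3. The lowest oeSTUB1 library lay more than 2-fold above the highest oeNC library, so that the groups were far apart. The means were 11.0 ± 0.612 and 31.9 ± 2.90 FPKM (SD, n = 3 each), a 2.90-fold difference. The log2 fold change was 1.52 (standard error 0.093, 95% interval 1.31 to 1.74, adjusted p = 0.00012 from limma). Behind these values were 638 to 752 fragments in oeNC and 1741 to 2007 in oeSTUB1 libraries.

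PTGER4 also rose, from a far lower level. It encodes EP4, a prostaglandin E2 receptor that raises cAMP, and lies on chromosome 5 from 40679498 to 40693735 on the plus strand. Its expression was 0.0973, 0.160 and 0.125 FPKM in oeNC replicates 1, 2 and 3, which is 14, 23 and 19 fragments. In oeSTUB1 replicates 1, 2 and 3 it was 0.511, 0.364 and 0.438 FPKM, or 73, 50 and 62 fragments. The groups did not overlap, and every oeSTUB1 library held more than 2 times the fragments of any oeNC library. The group means differed 3.44-fold, and the log2 fold change was 1.24 (standard error 0.22, 95% interval 0.74 to 1.74, adjusted p = 0.0090 from limma), a scale that understates the change of so low a gene. Without both libraries numbered 3, an alternative added after the data were seen, PTGER4 had a log2 fold change of 1.23 but was not significant (adjusted p = 0.11 from limma).

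PTGES and PTGER4 were the 2 members called higher out of 7 tested, where 7.01% of all tested genes were called higher. Both also had a log2 fold change over 1, which 2.79% of tested genes reached with the call. No member was called lower by limma, against 6.59% of all tested genes. At an unadjusted p-value under 0.05, 3 members were higher and 0 lower, beside 16.0% and 13.7% of all tested genes. Limma-voom on whole fragments called 2 members higher and 0 lower, beside 6.55% and 7.34% of all tested genes. The median log2 fold change of the 7 tested members was 0.31, beside 0.02 over all tested genes. PTGES, PTGER4 and PTGES2 made 3 of 7 members with all oeSTUB1 values above all oeNC values, which 21.5% of tested genes showed.

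**Figure D1:**
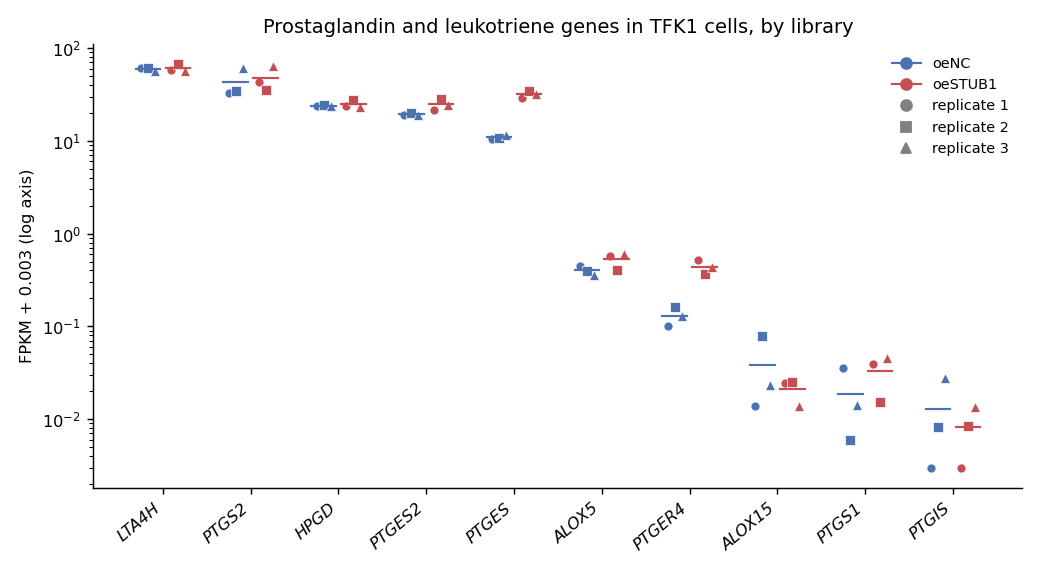
FPKM of the 10 genes in each library, on a log axis after adding 0.003 so that 0 can be drawn, with oeNC in blue, oeSTUB1 in red, a symbol for each replicate number and a bar at each group mean. PTGES rises from 11.0 to 31.9 FPKM and PTGER4 from 0.127 to 0.438 FPKM on average, while LTA4H, HPGD and PTGS2 overlap between the groups.

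The other prostaglandin E synthase among the members was higher in each oeSTUB1 library but short of the threshold. PTGES2 encodes membrane-associated prostaglandin E synthase-2, which is expressed in most tissues, and lies on chromosome 9 from 128120693 to 128128462 on the minus strand. Its expression was 18.9, 20.1 and 18.9 FPKM in oeNC replicates 1, 2 and 3 and 21.7, 28.1 and 24.3 FPKM in the oeSTUB1 replicates. The groups did not overlap, yet oeSTUB1 replicates spread 1.29-fold among themselves. The log2 fold change was 0.35 (standard error 0.10, 95% interval 0.11 to 0.59, adjusted p = 0.065 from limma). It passed the threshold without oeSTUB1 replicate 1 (adjusted p = 0.039 from limma) and without oeSTUB1 replicate 2 (adjusted p = 0.026 from limma), and adjusted p-values ranged from 0.0265 to 0.302 over all alternatives. PTGES3, the cytosolic synthase that is also the HSP90 co-chaperone p23, was not called (log2 fold change 0.17, 95% interval -0.03 to 0.38). PTGES made up 7.50% to 8.62% of the summed FPKM of the 3 synthase genes in oeNC libraries and 17.1% to 18.9% in oeSTUB1 libraries.

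No change was detected in the cyclooxygenases that supply these synthases. PTGS2 lies on chromosome 1 from 186671791 to 186680427 on the minus strand. It was expressed at 32.8, 34.7 and 61.7 FPKM in oeNC replicates 1, 2 and 3 and at 43.3, 35.6 and 63.9 FPKM in oeSTUB1 replicates 1, 2 and 3. Replicate 3 was the highest in both conditions, with a 1.88-fold spread within oeNC and 1.80-fold within oeSTUB1, and the groups overlapped. The log2 fold change was 0.16 (standard error 0.28, 95% interval -0.49 to 0.81, adjusted p = 0.74 from limma), an interval that reached 1.76-fold upwards. PTGS2 had 5132 to 10222 fragments in every library, so that counting error was not what limited it. In oeNC replicate 3 the immediate early genes FOS, JUN and EGR1 were also the highest of the oeNC libraries, and EGR1 was 4.01 FPKM there against 0.395 and 0.487 FPKM in replicates 1 and 2. In oeSTUB1 replicate 3 EGR1 was 0.961 FPKM against 0.629 and 0.876 FPKM, JUN was the lowest of the 3 libraries, and the part of these genes in the PTGS2 values was not tested.
PTGS1 was nearly silent. It lies on chromosome 9 from 122370530 to 122395703 on the plus strand and had 11, 1 and 4 fragments in oeNC replicates 1, 2 and 3 and 12, 4 and 14 in the oeSTUB1 replicates. With a mean of 0.0156 and 0.0302 FPKM it was below the level for testing, and the groups overlapped. PTGS2 exceeded PTGS1 at least 1003-fold in FPKM in each library. The log2 ratio of PTGS2 to PTGS1 was compared after adding 0.1 FPKM to both, an addition above every PTGS1 value, so that it compresses the ratio and mostly follows PTGS2. On that scale the ratio was 8.49 ± 0.587 in oeNC and 8.48 ± 0.288 in oeSTUB1 cells (SD, n = 3 each, exact permutation test, two-sided, p = 1.0, where 0.1 is the smallest p that 3 against 3 allow).

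**Figure D2:**
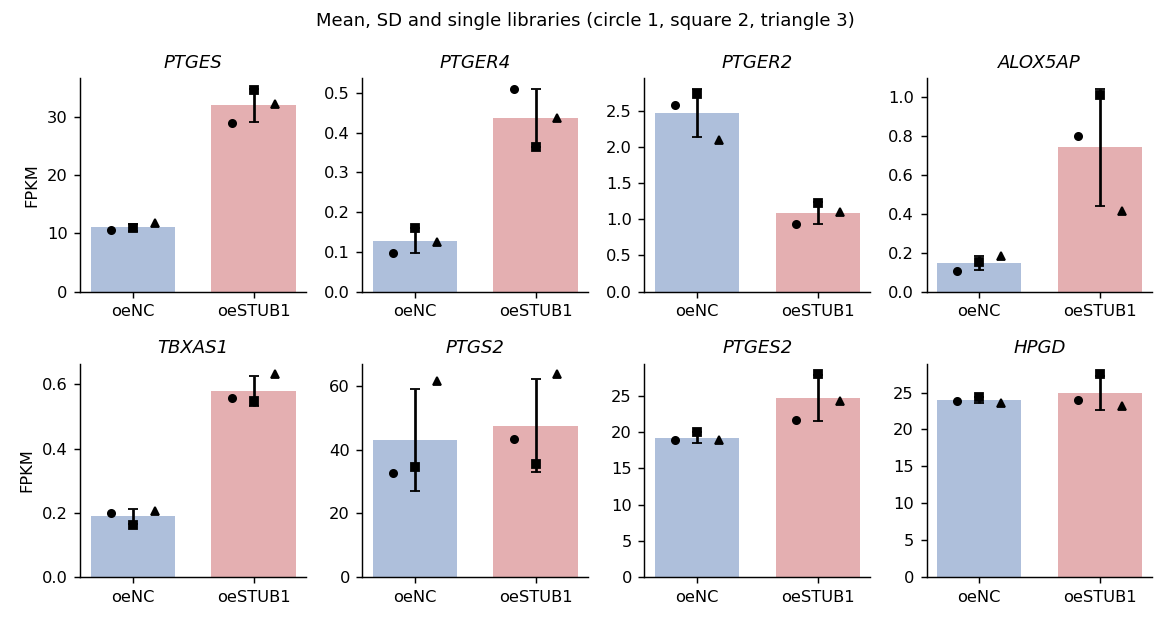
FPKM of 8 genes by library, with bars from 0 for the group mean, error bars for the SD (n = 3) and a symbol for each library. PTGES, PTGER4, ALOX5AP and TBXAS1 are higher and PTGER2 is lower in oeSTUB1 with no overlap, while both PTGS2 bars have their highest point in replicate 3.

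HPGD, the 15-hydroxyprostaglandin dehydrogenase that starts the breakdown of prostaglandin E2, was not called. It lies on chromosome 4 from 174490177 to 174523154 on the minus strand. Values were 23.9, 24.5 and 23.6 FPKM in oeNC replicates 1, 2 and 3 and 24.0, 27.5 and 23.2 FPKM in the oeSTUB1 replicates. The groups overlapped, and the log2 fold change was 0.05 (95% interval -0.15 to 0.25, adjusted p = 0.74 from limma), an interval from 0.902-fold to 1.19-fold. The order of PTGES and HPGD turned round. PTGES was 0.439, 0.443 and 0.496 times HPGD in oeNC replicates 1, 2 and 3 and 1.2, 1.26 and 1.39 times HPGD in the oeSTUB1 replicates. With 0.1 FPKM added to both, the log2 ratio of PTGES to HPGD went from -1.12 ± 0.0965 to 0.36 ± 0.104 (SD, n = 3 each), with no overlap (exact permutation test, two-sided, p = 0.1, the smallest that 3 against 3 allow). PTGIS, the prostacyclin synthase gene on chromosome 20 from 49503874 to 49568146 (minus strand), had 0, 1 and 5 fragments in oeNC and 0, 1 and 2 in oeSTUB1 replicates 1, 2 and 3. It was below the level for testing, and a difference was not detectable at this depth.

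In the leukotriene branch the level of the members differed widely. LTA4H lies on chromosome 12 from 96000828 to 96043520 on the minus strand and was the highest of the 10 genes in both group means. Values were 60.7, 61.8 and 57.3 FPKM in oeNC and 57.9, 67.2 and 57.3 FPKM in oeSTUB1 replicates 1, 2 and 3, overlapping values with a log2 fold change of 0.02 (95% interval -0.19 to 0.22, adjusted p = 0.92 from limma). Its exons overlap a pair of antisense genes that were not listed in the table, and the counting strand was not given in the sources used here. ALOX5, on chromosome 10 from 45374176 to 45446119 (plus strand), was 0.45, 0.394 and 0.350 FPKM in oeNC and 0.577, 0.401 and 0.594 FPKM in oeSTUB1 replicates 1, 2 and 3. These are 33 to 52 fragments a library. The groups overlapped, and the log2 fold change was 0.31 (95% interval -0.15 to 0.78, adjusted p = 0.33 from limma).
LTA4H was 96.5 to 168 times as high as ALOX5, over all 6 libraries. With 0.1 FPKM added to both, which compresses the ratio, the log2 ratio of LTA4H to ALOX5 was 6.92 ± 0.111 in oeNC and 6.62 ± 0.391 in oeSTUB1 cells (SD, n = 3 each, exact permutation test, two-sided, p = 0.4, with 0.1 the smallest possible). The difference was -0.30, and -0.52 without oeSTUB1 replicate 2 (exact permutation test, p = 0.1, the smallest possible there). ALOX15, the 15-lipoxygenase gene, lies on chromosome 17 from 4630902 to 4642294 on the minus strand. It had 1, 7 and 2 fragments in oeNC and 2, 2 and 1 in oeSTUB1 replicates 1, 2 and 3. This was below the level for testing.

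By mean FPKM the order in oeNC cells was LTA4H, PTGS2, HPGD, PTGES2, PTGES, ALOX5, PTGER4, ALOX15, PTGS1 and PTGIS. Within it LTA4H and PTGS2 overlapped, as did ALOX15 with PTGS1 and PTGS1 with PTGIS, and the other neighbours were separate. In oeSTUB1 cells PTGES moved from place 5 to place 3, above HPGD and PTGES2 in every library and below PTGS2, and PTGER4 came to overlap ALOX5. PTGS2 was 3.12, 3.2 and 5.28 times PTGES in oeNC replicates 1, 2 and 3 and 1.5, 1.03 and 1.98 times PTGES in oeSTUB1 replicates 1, 2 and 3.

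Beyond the members, 44 other eicosanoid genes were examined, of which 40 were listed and 28 tested. Of these 28, 3 were called higher and 5 lower, beside 7.01% and 6.59% of all tested genes. With an absolute log2 fold change over 1 there were 3 higher and 3 lower, beside 2.79% and 2.4% of all tested genes. The median log2 fold change of the 28 was -0.10. The higher genes were ALOX5AP, AKR1B1 and TBXAS1, and the lower ones were CYP4F2, CYP4F3, PTGER2, PTGDS and PTGR1.
Among synthesis genes 2 of 9 tested were called higher and 1 lower. AKR1B1, an aldose reductase that also has prostaglandin F synthase activity, rose from 194 ± 8.35 to 530.1 ± 91.7 FPKM (SD, n = 3 each, log2 fold change 1.44, adjusted p = 0.00050 from limma). TBXAS1, thromboxane A synthase, rose from 0.189 ± 0.0229 to 0.580 ± 0.0463 FPKM (SD, n = 3 each, log2 fold change 1.24, adjusted p = 0.0040 from limma), on 50 to 67 fragments in oeNC and 161 to 192 in oeSTUB1 libraries. Without both libraries numbered 3 TBXAS1 and PTGR1 lost the call (adjusted p = 0.062 and 0.064 from limma). PTGDS, a prostaglandin D synthase gene, had a log2 fold change of -0.88 (limma, adjusted p = 0.033) on 10 to 14 fragments in oeNC and 4 to 6 in oeSTUB1 libraries, and lost the call in 9 of 15 alternatives. The phospholipase gene PLA2G4A, which supplies arachidonic acid and is one of the nearest tested genes to PTGS2, was not called (log2 fold change 0.26, 95% interval -0.04 to 0.57).
Of the 4 tested breakdown and transport genes only PTGR1 was called. PTGR1, which reduces 15-oxo-prostaglandins and also inactivates leukotriene B4, fell from 161 ± 5.05 to 97.5 ± 11.0 FPKM (SD, n = 3 each, log2 fold change -0.73, adjusted p = 0.0027 from limma).

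Of the prostanoid receptors, PTGER2 was the only one tested beside PTGER4, and it moved the other way. PTGER2 encodes EP2, which like EP4 raises cAMP. It was 2.58, 2.73 and 2.09 FPKM in oeNC replicates 1, 2 and 3 and 0.933, 1.23 and 1.1 FPKM in the oeSTUB1 replicates, with no overlap. The log2 fold change was -1.11 (standard error 0.15, 95% interval -1.47 to -0.76, adjusted p = 0.0033 from limma). PTGER2 was 26.5, 17.1 and 16.8 times PTGER4 in oeNC replicates 1, 2 and 3 and 1.83, 3.37 and 2.50 times PTGER4 in oeSTUB1 replicates 1, 2 and 3, so it remained the higher of the pair in each library. This pair was put together after the values were seen, and is given as a description. Of the 8 receptors other than PTGER4, 6 were listed, and 2 of these had at most 3 fragments in every library.

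In the lipoxygenase and leukotriene list 1 of 12 tested genes was called higher and 2 lower, beside 7.01% and 6.59% of all tested genes. ALOX5AP, which presents arachidonic acid to ALOX5, was 0.107, 0.150 and 0.182 FPKM in oeNC replicates 1, 2 and 3 and 0.800, 1.01 and 0.414 FPKM in the oeSTUB1 replicates. These are 5, 7 and 9 fragments against 37, 45 and 19, with a log2 fold change of 1.71 (standard error 0.31, 95% interval 1.00 to 2.42, adjusted p = 0.010 from limma). Its log2 fold change was 0.59 with a pseudocount of 1 and 2.20 with one of 0.01. CYP4F3, which inactivates leukotriene B4 by omega-hydroxylation, fell from 19.0 ± 1.15 to 8.42 ± 1.76 FPKM (SD, n = 3 each, log2 fold change -1.18, adjusted p = 0.0021 from limma). Its relative CYP4F2 had a log2 fold change of -1.32 (limma, adjusted p = 0.014) at 25 to 28 fragments in oeNC and 3 to 10 in oeSTUB1 libraries. CYP4F2, 1 of the 2 called lower, reached the level for testing only through the oeNC libraries. Its mean was 0.316 FPKM there, against 0.0705 FPKM in the other group. The sequences of these CYP4F genes are close, so the split of reads between them is uncertain. The log2 fold change of CYP4F2 was -0.30 with a pseudocount of 1 and -2.23 by limma-voom. CYP4F2 lost the call without oeNC replicate 1, 2 or 3, with adjusted p-values of 0.0623, 0.0705 and 0.0523 from limma. Of the leukotriene receptors LTB4R and LTB4R2 were tested and neither passed, with adjusted p-values of 0.58 and 0.25 from limma.

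**Figure D3:**
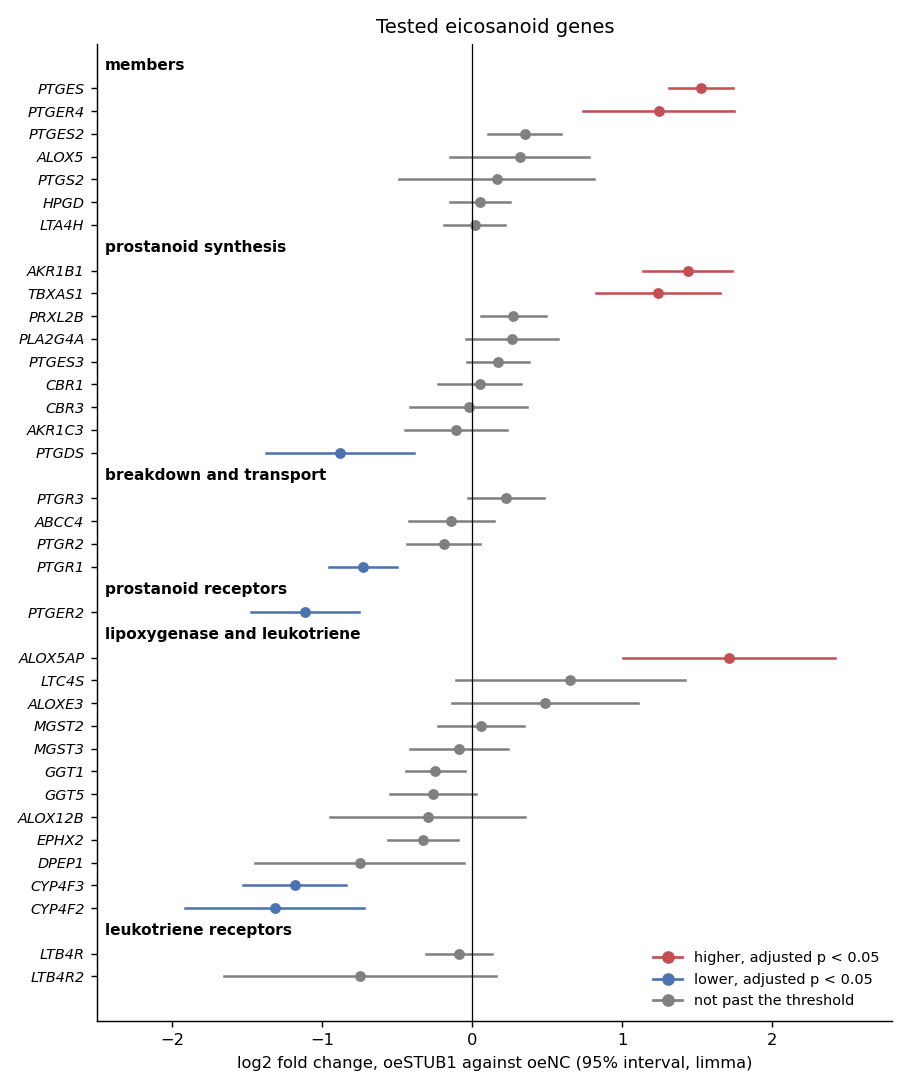
Log2 fold change of oeSTUB1 against oeNC with its 95% interval from limma for the 7 tested members and the 28 other tested eicosanoid genes, grouped by role, with called genes in red (higher) and blue (lower). PTGES (1.52) and PTGER4 (1.24) stand to the right of 0 among the members, and PTGER2 (-1.11) to the left among the receptors.

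ALOX5, ALOX5AP and TBXAS1 are known from white blood cells, so markers of these cells were read beside them. Of 12 leukocyte markers 10 had a higher mean in oeSTUB1 cells. Of the 9 tested, 7 had a positive log2 fold change, beside 52.6% of all tested genes. Limma called 0 of the 9 higher and 1 (CD68) lower, beside 7.01% and 6.59% of all tested genes. At an unadjusted p-value under 0.05, 2 were higher and 2 lower, beside 16.0% and 13.7%. By limma-voom 0 were higher and 1 lower, beside 6.55% and 7.34%. The list summed to between 34.1 and 38.1 FPKM in oeNC and 28.9 to 30.2 in oeSTUB1 libraries, most of it CD68 and CD14. A sum without CD68, CD14 and ITGAM was chosen after the values were seen. CD68 and ITGAM were the 2 markers with a lower mean in oeSTUB1 cells, so that choice fixed a higher mean of the sum. That sum was 2.04, 2.02 and 4.48 FPKM in oeNC replicates 1, 2 and 3. In the oeSTUB1 replicates it was 6.18, 4.47 and 3.42 FPKM. The part of such cells in the values of ALOX5, ALOX5AP and TBXAS1 was not tested. MS4A1 had at most 3 fragments in every library. Of 10 endothelial markers 6 had at most 3 fragments in every library, among them VWF and KDR, and the list summed to 0.662 to 0.698 FPKM in oeNC and 1.30 to 1.34 FPKM in oeSTUB1 libraries, most of it ESAM, which was called higher. Of 10 fibroblast markers COL1A2 and DCN had at most 3 fragments in every library, and the sums were 7.20 to 8.89 and 7.61 to 10.6 FPKM. Of 6 mast cell markers 3 were listed, 2 of them with at most 3 fragments everywhere, and KIT was called lower. KIT reached the level for testing only through the oeNC libraries, with a mean of 0.244 FPKM there, against 0.0382 FPKM in the other group. In bulk RNA fewer cells of a type and less RNA per cell cannot be told apart.

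2 further lists of 12 genes were examined. The inducer list held genes linked to the induction of PTGS2, not all of them inducers themselves. The other held genes that respond to cAMP downstream of EP2 and EP4. Of 22 tested genes 3 were called higher and 2 lower, beside 7.01% and 6.59% of all tested genes. The median log2 fold change of the 22 was 0.13. In the inducer list CXCL8, a chemokine and itself a target of NF-kB, rose from 7.69 ± 2.75 to 34.1 ± 6.74 FPKM (SD, n = 3 each, log2 fold change 2.17, adjusted p = 0.0013 from limma). IL6 rose with a log2 fold change of 1.47 (limma, adjusted p = 0.013), on 0, 0 and 6 fragments in oeNC and 28, 18 and 23 in oeSTUB1 replicates 1, 2 and 3. It lost the call without oeNC replicate 1 or 2 (adjusted p = 0.057 and 0.059 from limma) and without both libraries numbered 3 (adjusted p = 0.064 from limma). Without oeSTUB1 replicate 1 or 3 it was not tested. IL6, 1 of the 3 called higher, reached the level for testing only through the oeSTUB1 libraries. Its mean was 0.221 FPKM there, against 0.0178 FPKM in the control group. The log2 fold change of IL6 was 0.26 with a pseudocount of 1 and 4.31 by limma-voom. FOS fell from 16.9 ± 6.27 to 4.33 ± 0.168 FPKM (SD, n = 3 each, log2 fold change -1.88, adjusted p = 0.0015 from limma). Of the 12 cAMP-responsive genes, 1 rose and 1 fell. PDE4B, a phosphodiesterase that degrades cAMP, changed by 0.64 (adjusted p = 0.027 from limma) and NR4A2 by -0.62 (adjusted p = 0.0499 from limma), but PDE4B lost the call in 7 and NR4A2 in 11 of 16 alternatives.

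PTGES, PTGES2 and PTGS1 all lie on the long arm of chromosome 9, a chromosome whose genes were on average slightly higher in oeSTUB1 cells. The median log2 fold change of its 604 tested genes was 0.16, and 66.7% of them had a positive value. On this chromosome 13.7% of tested genes were called higher and 33.4% had all oeSTUB1 values above all oeNC values, but 2.98% were called higher with a log2 fold change over 1. The change of PTGES2 (0.35) ranked 137 on the chromosome, and that of PTGES (1.52) ranked 7. Within 2 Mb on either side of PTGES 78 other genes were tested, with a median of 0.21, and 9 were called higher and 4 lower. The nearest tested genes at higher coordinates than PTGES, TOR1B and TOR1A, had log2 fold changes of 0.44 and 0.43 (limma, adjusted p = 0.010 and 0.016). As PTGES lies on the minus strand, this is the side of its transcription start. PRRX2 and ASB6, at lower coordinates than PTGES, were not called. Next to PTGES2, LCN2, which encodes the secreted protein lipocalin-2, rose by 1.75 (adjusted p = 0.0068 from limma). PTGR1 and PTGDS, which fell, lie on chromosome 9 as well. The genes before PTGER4, FYB1 and DAB2, had log2 fold changes of -1.0 and -1.52 (limma, adjusted p = 0.00053 and 0.00056), and TTC33 and PRKAA1 after it were not called. Among the neighbours of the other members ZNF22, next to ALOX5, and ELK3, next to LTA4H, were called higher, with log2 fold changes of 0.60 and 0.32.

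**Figure D4:**
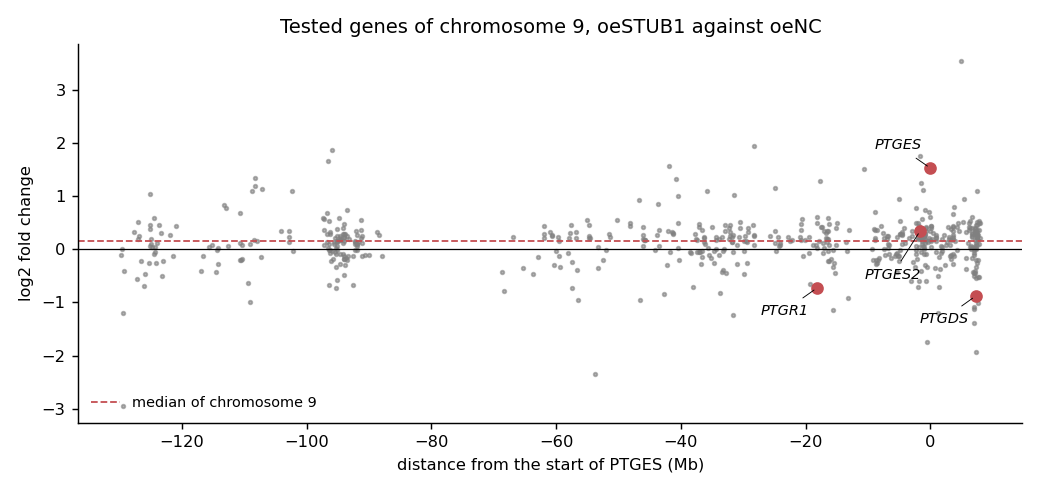
Log2 fold change of the 604 tested genes of chromosome 9 by distance from PTGES in Mb, with the chromosome's median (0.16) as a dashed line and 4 eicosanoid genes in red. Distance is counted from the lower coordinate of PTGES, the far end of this minus-strand gene, which the axis calls its start. PTGES stands at 1.52 well above the median and PTGES2 at 0.35 close to it, while PTGR1 and PTGDS are below 0.

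For each called member the 3 genes most like it were sought among the 11375 genes whose mean reached 1 FPKM, by the root mean square difference of the 6 log2 values, each centred on its oeNC mean. For PTGES they were DNAJC12, CXCL5 and AKR1B1, with differences of 0.12, 0.13 and 0.13. CXCL5, a neutrophil-attracting chemokine, had values of 69.6, 71.2 and 81.4 FPKM in oeNC and 192, 221 and 266 FPKM in oeSTUB1 replicates 1, 2 and 3. For PTGER4 they were HOXA7, S1PR3 and GJA1, with differences of 0.10, 0.14 and 0.14. The 0.1 FPKM added before the log compresses the change of PTGER4, which lies below the genes searched, more than theirs.

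The windows of 300 bases around the starts differed in CpG content, the dinucleotide at which DNA is methylated. Of the 10 members, 7 had RefSeq windows, and those of PTGIS, ALOX5 and ALOX15 were not used here. PTGES held 10 and PTGS2 12 CpG, beside a median of 14 over the 35116 windows. PTGES2 held 25 to 43 in its 3 windows, LTA4H 18, HPGD 34 and 7 in its 2 windows, and PTGS1 4 and 10. The RefSeq window of PTGER4 held 30 CpG and 4 GC boxes, but it lies inside the GENCODE gene, within an exon, and is not the sequence before that gene's start.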

How the data were processed

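RNA was sequenced from 3 oeNC and 3 oeSTUB1 libraries of TFK1 cells. The authors deposited FPKM values for 23569 genes. The submitters' processing notes name fastp 0.20.1, HISAT2 2.1.0, HTSeq 0.11.2, R 3.2.0, DESeq2 1.22.2 and GRCh38.p13. The annotation and the strand setting are not given in the sources used here. Columns were matched to samples by title, and 0 value columns belonged to no sample.

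Whole fragments were recovered from the FPKM steps for 23569 genes, taking values within 0.0001 of a whole number as whole. FPKM recomputed from them were within 4.9e-06 of those deposited. Where all 6 fragment numbers of a gene shared a divisor, the recovered ones may be too low. The floor was 3 fragments. Groups were compared using limma 3.58.1 in R 4.3.3 (eBayes with trend, two-sided) on log2(FPKM + 0.1), with Benjamini-Hochberg adjustment over the 15353 genes whose mean reached 0.1 FPKM. Ratios within a library were compared by the exact permutation test. Both the recovery and the limma fit were first tested on simulated data. Gene positions are those of GENCODE release 29, and gene order that of RefSeq on GRCh38.p14, which placed 96.7% of tested genes. PTGR3 was listed as ZADH2.

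Members and lists were chosen with earlier results of these data known. All members were named, along with other pathway, inducer and cAMP-responsive genes at an adjusted p under 0.05, the 2 nearest tested genes on either side of each member, and the 3 genes of most similar pattern for each called member. EGR1, JUN and genes named as not called were chosen after their values were seen. Alternatives were other pseudocounts, filters, scalings and eBayes settings, a replicate block, leaving out libraries, and limma-voom. Python 3.11.15 was used for the other steps.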

Additional observations from a re-analysis of the deposited data

How the results depend on the processing

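The calls of PTGES, AKR1B1, PTGER2, CXCL8, FOS and CYP4F3 held in each of the 16 alternatives. For PTGES the log2 fold change lay between 1.45 and 1.59. With a filter at a mean FPKM of 1, which leaves PTGER4 untested, 1 member was called higher, 1 other pathway gene higher and 3 lower, and 1 of the inducer and cAMP-responsive genes (regulator genes) lower. Of all 11375 genes tested there, 794 were called higher and 718 lower. The PTGER4 log2 fold change was 0.35 with a pseudocount of 1, 1.72 with a pseudocount of 0.01 and 1.76 by limma-voom. Without both libraries numbered 3, an alternative chosen after seeing the data, 324 genes in all were called higher and 299 lower, 1 member was called higher, 2 pathway genes lower and 1 regulator gene lower. The regulator genes called lower were also 1 with pseudocounts of 1 and 0.01, no filter and eBayes without a trend. Over all genes 1055, 970, 867 and 976 were called lower in these settings, in that order. With each library left out in turn, 2 to 3 members and 3 to 4 pathway genes were called higher, 3 to 8 pathway genes lower (8 without oeSTUB1 replicate 2), 1 to 5 regulator genes higher (5 without oeSTUB1 replicate 2) and 1 to 2 lower. Over all genes, 474 to 2273 were then called higher and 453 to 1845 lower, against 1076 and 1012, the most without oeSTUB1 replicate 2. The direction of 3 uncalled members was not stable. With a library left out, the log2 fold change ranged from -0.072 to 0.45 for PTGS2, from -0.023 to 0.10 for HPGD and from -0.057 to 0.058 for LTA4H. LTA4H was -0.0094 with median-ratio scaling and -0.051 with quantile normalization, and HPGD was -0.019 with quantile normalization. The difference in the log2 ratio of PTGS2 to PTGS1 (-0.01) became 0.14 with a pseudocount of 1, -0.57 with a pseudocount of 0.01 and -0.28 to 0.30 with a library left out. The LTA4H to ALOX5 difference (-0.30) became -0.11 with a pseudocount of 1 and ranged from -0.52 to -0.17 with a library left out. TBXAS1 (1.24) became 0.41 and PTGDS (-0.88) -0.26 with a pseudocount of 1, an addition above every value of both genes, so that it compresses the change. The cause of the shifts with a library left out was not tested.

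The labels do not say whether libraries of the same replicate number belong together. Over all tested genes together, deviations from the group means correlated at -0.05, -0.05 and 0.06 for numbers 1, 2 and 3. Pairing that acts on only some genes was not tested. With a replicate block 741 genes in all were called higher and 747 lower, 2 members were called higher and 0 lower, 3 pathway genes higher and 4 lower, and 3 regulator genes higher and 2 lower. PTGDS lost its call there (adjusted p = 0.081 from limma), and PTGS2 was again not called (adjusted p = 0.39 from limma). Few fragments limited PTGS1, PTGIS and ALOX15, which lay below the filter at a mean of 0.1 FPKM. With no filter their log2 fold changes were 0.17, -0.056 and -0.17 (limma, adjusted p = 0.53, 0.77 and 0.63). The 0.1 FPKM added there is above all their values and compresses the change.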
